A study of Homo sapiens with 2 samples.

Results

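The interferon regulatory factor (IRF) genes were compared between R-HL60, a human leukaemia line selected from HL60 by continuous exposure to rising cytarabine concentrations, and the untreated parental line HL60. The 8 genes IRF1, IRF2, IRF3, IRF4, IRF5, IRF7, IRF8 and IRF9 were taken by name, and every probe carrying one of these names was used: 10 probes of the 58201 on each array, or 8 of 43270 genes and transcripts. HL60 grows as promyelocyte-like blasts from an acute myeloid leukaemia, and cytarabine, a mainstay of treatment of that disease, is a nucleoside analogue that blocks DNA synthesis. For either line there was 1 Agilent one-colour array of total RNA, so no test between cultures is possible, no p-value is given, and array and cell line cannot be told apart. R-HL60 is a single selected line whose label gives cytarabine as its treatment, without saying whether the drug was present when RNA was taken.

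IRF proteins are transcription factors with a shared N-terminal DNA-binding domain that recognises GAAA repeats in the control regions of interferon genes and interferon-stimulated genes. IRF3 and IRF7 are phosphorylated by the kinases TBK1 and IKBKE after viral nucleic acid is sensed and switch on type I interferon genes, while IRF5 acts downstream of Toll-like receptors and the adaptor MYD88. IRF9 is part of the complex ISGF3, which carries the response to type I interferon. IRF1 activates and IRF2 mostly represses an overlapping set of promoters. IRF8 and IRF4 bind DNA poorly alone and work with partners such as PU.1 (the SPI1 product); IRF8 favours monocyte and dendritic cell fates over granulocytes, and IRF4 is best known in lymphocytes and plasma cells.

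The control regions of IRF1 and IRF9 are shown because each holds a match to the GAS motif TTCNNNGAA, known as the gamma-activated site, and because the IRF1 region also matches the NF-kB (kappaB) consensus. Both are the 250 bases before the RefSeq start on GRCh38.p14, 5′ to 3′ on the gene's strand, with motif matches in capitals. IRF1 is at chr5:132490774-132491023 on the minus strand and IRF9 at chr14:24161015-24161264 on the plus strand.
IRF1: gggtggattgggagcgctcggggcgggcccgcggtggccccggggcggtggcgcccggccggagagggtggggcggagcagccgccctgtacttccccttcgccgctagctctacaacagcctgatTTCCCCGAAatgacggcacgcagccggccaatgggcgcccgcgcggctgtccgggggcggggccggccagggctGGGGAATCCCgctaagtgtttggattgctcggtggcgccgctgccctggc
IRF9: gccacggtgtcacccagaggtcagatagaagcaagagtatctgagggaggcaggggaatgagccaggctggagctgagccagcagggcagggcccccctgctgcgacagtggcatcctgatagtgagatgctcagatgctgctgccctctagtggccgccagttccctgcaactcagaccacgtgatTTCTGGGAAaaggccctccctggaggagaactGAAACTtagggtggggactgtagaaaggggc
In IRF1 the GAS match TTCCCCGAA lies 124 to 116 bases before the start and the kappaB match GGGGAATCCC 50 to 41 bases before it. In IRF9 the GAS match TTCTGGGAA lies 63 to 55 bases before the start, followed by the short IRF element GAAACT at 31 to 26 bases. Both strands were searched and the matches do not overlap. Over the 35116 RefSeq windows of this length, 6.57% hold the GAS motif, 5.21% the kappaB consensus and 12.6% GAAACT. The full IRF element GAAANNGAAA, present in 3.02% of all windows, was in none of the 9 windows of IRF1, IRF4, IRF5, IRF8 and IRF9, the 5 members with an entry. The 2 IRF8 windows and 4 IRF5 windows held no GAS or kappaB match, and GAAACT occurred in 1 window of each. Both listed IRF8 starts lie within the annotated extent of the gene, so a window before its outermost start was not examined. A match is a run of letters and not a measured binding site.

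No IRF gene differed by 2-fold between the lines. Of the 8 genes, 7 lay above the floor on both arrays, the floor being each array's median signal, 32.8 on the R-HL60 and 30.7 on the HL60 array. At least 2-fold higher in R-HL60 were 0 members, beside 0.786% of the 23531 genes above the floor on at least 1 array, and 0 were 2-fold lower, beside 0.297%. At 1.5-fold, 1 member (IRF2) was higher, where the background is 3.53%, and 1 (IRF8) was lower, where it is 1.38%. Differences here are log2 of the signal after subtraction of each array's 75th percentile, R-HL60 minus HL60. Over the 7 measured members their median was 0.04, against -0.03 over all genes measured on both arrays, with 4 above and 3 below 0.

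For genes read by several probes, the probes of a gene gave differences with an SD of 0.19 (4723 genes). This SD is larger for dim probes, so genes were cut into 10 equal bins of mean signal and each member is set beside the probe SD of its own bin. Neither culture nor array variation is contained in it.

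**Figure D1:**
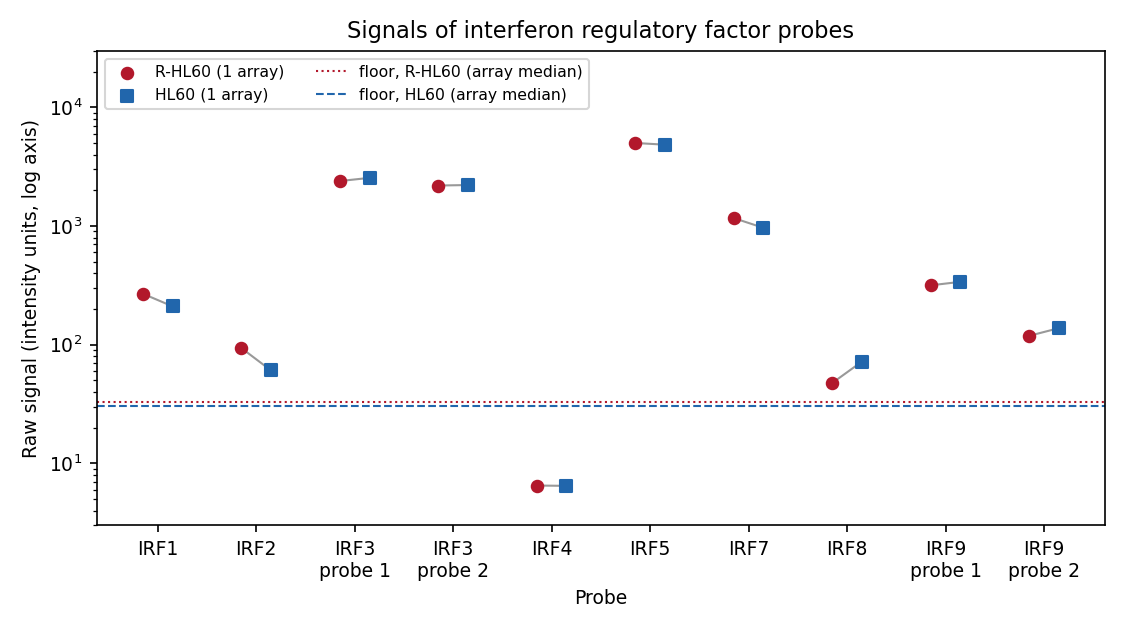
Raw signal (intensity units, log axis) of each IRF probe on the R-HL60 array (circles, left of each pair) and the HL60 array (squares, right), with 1 array per line and no error bars. The dotted and dashed lines are the array medians used as floor. The IRF4 pair lies below them, and IRF2 and IRF8 are the pairs nearest above.

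IRF1, the activator first known from the interferon-beta promoter, gave a signal of 268 in R-HL60 and 210 in HL60. The difference was 0.34 (1.27-fold), where the probe SD at this brightness is 0.19. Of the genes in its brightness bin, 8.29% were at least as much higher. IRF2, which competes with IRF1 for the same sites, gave 93.4 in R-HL60 and 60.6 in HL60, a difference of 0.62 (1.53-fold) with a probe SD of 0.30. In its bin 5.08% of genes were at least as much higher. Both genes were thus higher on the R-HL60 array, each on 1 probe. With 50 units added to every signal, which shrinks differences of dim probes, IRF2 was at 0.37.

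IRF8, the myeloid partner of PU.1, went the other way. Its single probe gave 47.6 in R-HL60 and 72.1 in HL60, a difference of -0.61 (1.52-fold lower) with a probe SD of 0.35. In all, 2.29% of genes in its bin were at least as much lower. Its signals were 1.45 and 2.35 times the floor in R-HL60 and HL60, which makes it the dimmest measured member in R-HL60, whereas IRF2 was dimmer in HL60 (1.97 times the floor). With the 50-unit offset the IRF8 difference was -0.33. In a bulk RNA sample fewer cells expressing a gene and less RNA per cell cannot be told apart. IRF4, the lymphoid relative of IRF8, gave 6.50 in R-HL60 and 6.45 in HL60, below the floor on both, so it has no measured difference.

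The factors that are activated by phosphorylation showed bright signals. IRF3 had 2 probes. The brighter gave 2394 in R-HL60 and 2545 in HL60, a difference of -0.10, and the other 2194 in R-HL60 and 2214 in HL60, a difference of -0.02. Both lie within the probe SD of 0.13. IRF5 gave 5009 in R-HL60 and 4845 in HL60, a difference of 0.04 with a probe SD of 0.10, and its sign turned to -0.05 when arrays were scaled to their medians. IRF7, itself an interferon-stimulated gene, gave 1165 in R-HL60 and 965 in HL60. Its difference of 0.26 (1.20-fold) compares with a probe SD of 0.13, and 5.96% of genes in its bin were at least as much higher.

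IRF9, the DNA-binding subunit of ISGF3, was slightly lower on both its probes. The brighter gave 316 in R-HL60 and 338 in HL60, a difference of -0.11 with a probe SD of 0.19. The dimmer gave 119 in R-HL60 and 138 in HL60, a difference of -0.22 with a probe SD of 0.21. STAT2, which binds IRF9 in that complex, gave 5894 in R-HL60 and 5299 in HL60 (0.14). It was chosen after its value was seen, like the other single genes named below that did not lead their list.

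**Figure D2:**
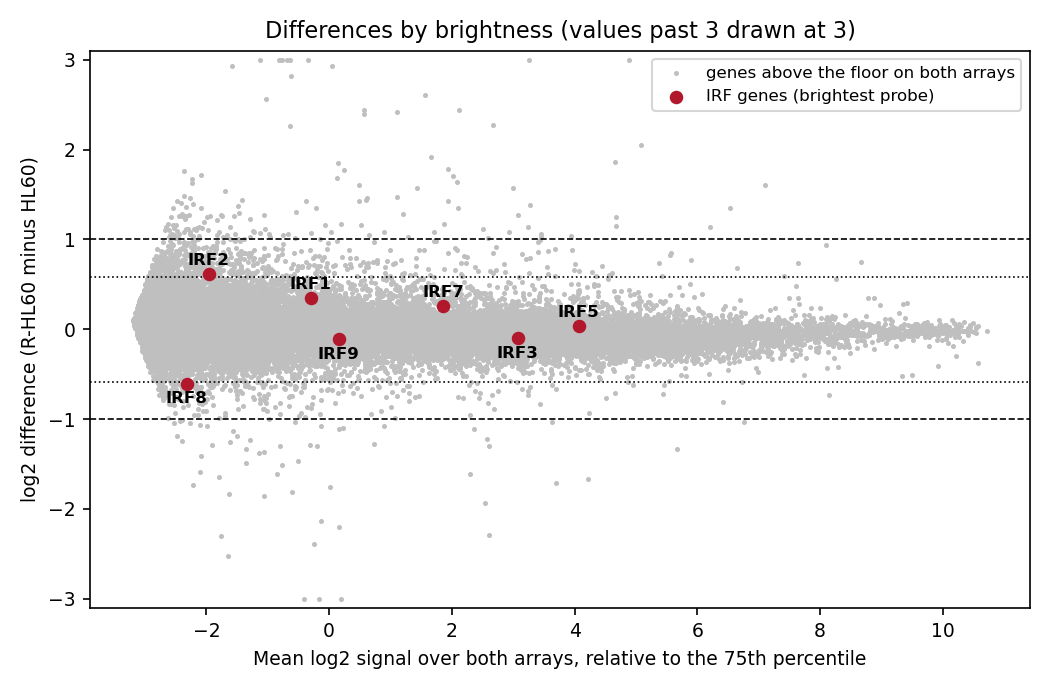
The log2 difference (R-HL60 minus HL60) of each gene above the floor on both arrays (grey) against its mean log2 signal relative to the 75th percentile, with the 7 measured IRF genes in red. Dashed lines mark 2-fold and dotted lines 1.5-fold. The grey cloud is widest at the dim end, where IRF2 (0.62) and IRF8 (-0.61) lie, and IRF3 and IRF5 sit inside the narrow bright part.

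The authors' normalized table, made by a method that the labels do not name, gave close values. In it IRF1 was at 0.34, IRF2 at 0.57, IRF7 at 0.30, IRF8 at -0.67 and IRF9 at -0.10 and -0.24. The second IRF3 probe changed sign there, to 0.03. IRF2 then lay just under 1.5-fold, at 1.48-fold, and IRF8 was 1.59-fold lower.

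The nearest measured genes on either side of the members in RefSeq order were read for comparison. Around IRF1, 2 genes away on either side, the long non-coding RNA gene CARINH (also called IRF1-AS1) gave 281 in R-HL60 and 237 in HL60 (0.24), and the DNA repair gene RAD50 gave 1146 in R-HL60 and 974 in HL60 (0.22). The nearest measured neighbours of IRF1 were thus higher too, although 2 further CARINH probes gave 0.15 and -0.05. Around IRF8, COX4I1, 3 genes away, was at 0.14 and LINC01081, 11 genes away, at 0.08. Around IRF7, the adjacent PHRF1 and DRD4, 3 genes away, were both at -0.15, and STOX2, 13 genes away from IRF2, was at 0.69. Of the long non-coding transcripts that the files name after a member, lnc-IRF2-2 (-0.13) and lnc-IRF4-2 (0.08) lay above the floor on both arrays.

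Among partners and corepressors of IRF proteins 0 were 2-fold higher, beside 0.786% of all genes, and 0 were 2-fold lower, beside 0.297%. Both counts are close to these shares. Of 18 genes, 17 were measured on both arrays, 9 above and 8 below 0, with a median of 0.08, or -0.01 with median scaling. The highest was IKZF3, an Ikaros-family factor, with 2661 in R-HL60 and 1407 in HL60 (0.91), and the lowest the coactivator CREBBP at -0.36. SPI1, the gene of PU.1, was nearly equal, with 10470.5 in R-HL60 and 9865 in HL60 (0.08). The related ETS factor SPIB was at 0.83 on dim signals of 75.7 in R-HL60 and 42.4 in HL60. Of the corepressors named for binding IRF2, IRF2BP2 was at 0.33, IRF2BPL at 0.46 and IRF2BP1 at -0.10.

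Upstream of IRF3, IRF5 and IRF7, 0 of 23 measured kinases and adaptors were 2-fold higher, beside 0.786% of all genes. Likewise 0 were 2-fold lower, beside 0.297%, so both counts are close to the shares of all genes. Of the 23, 11 were above and 12 below 0, with a median of -0.00, positive under quantile normalization (0.05). The kinase TBK1 gave 2807 in R-HL60 and 2765 in HL60 (0.01), and IKBKE was at 0.14. The highest was TICAM1, the adaptor of TLR3, with 1845 in R-HL60 and 1050 in HL60 (0.80), but its other measured probe gave 0.24. TRAF3 was at 0.56, as was TASL, an adaptor that recruits IRF5, and the ubiquitin ligase TRAF6 was lowest at -0.34.

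Interferon genes themselves were dim. Of 17 on the arrays, 14 lay below the floor on both, among them IFNB1 with 10.9 in R-HL60 and 17.8 in HL60 and IFNG with 3.18 in R-HL60 and 1.98 in HL60. IFNL2 was measured at 0.22 and IFNA4 at 0.11, and IFNL1, above the floor in R-HL60 only, was at least 1.22-fold higher. Related interferon genes are similar in sequence, so these probes may not separate them. All 8 measured receptor and JAK kinase genes lay between IFNAR1 at -0.26 and IFNGR2 at 0.27.

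Some genes listed as targets of these factors differed by more than 2-fold. Binding was not measured in these cells. These lists and those below were chosen with earlier results of these data known, so their counts do not test for an excess. Among 33 measured ISGF3 targets, 3 were at least 2-fold higher in R-HL60, beside 0.786% of all genes, 0 were 2-fold lower, beside 0.297%, and the median was 0.12. IFIH1, a sensor of double-stranded RNA, gave 2092 in R-HL60 and 603 in HL60 (3.45-fold). OAS3, an oligoadenylate synthetase, gave 402 in R-HL60 and 157 in HL60 (2.55-fold). Its other probe was above the floor in R-HL60 only and gives a bound. The mean of its probes was thus at least 0.83, a lower limit that does not itself reach 2-fold. TRIM22, an antiviral ubiquitin ligase, gave 210 in R-HL60 and 96.3 in HL60 (2.17-fold). The list pointed both ways, with 12 members below 0, and the lowest was IFIT2 with 221 in R-HL60 and 324 in HL60 (-0.56).

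Among 30 IRF1 and interferon-gamma targets above the floor on at least 1 array, 4 were at least 2-fold higher and 0 were 2-fold lower, beside 0.786% and 0.297% of all genes, and the median was 0.30. Of the 28 measured on both arrays 23 were above 0. CXCL10, a chemokine, gave 1991 in R-HL60 and 26.2, below the floor, in HL60, which makes it at least 64.5-fold higher. The adhesion molecule ICAM1 gave 352 in R-HL60 and 59.3 in HL60 (5.90-fold). The immunoproteasome subunit PSMB9 gave 4128 in R-HL60 and 1867 in HL60 (2.20-fold). With the 50-unit offset CXCL10 was at least 25.2-fold and ICAM1 3.66-fold higher, and TRIM22 of the ISGF3 list (1.77-fold) and GBP3 (1.78-fold) fell under 2-fold. GBP3, a guanylate-binding protein, was 2.09-fold higher on its brighter probe and at 0.82 on the other. Several of these genes, such as ICAM1 and CXCL10, are NF-kB targets as well, so the list does not isolate IRF1. It too was chosen with earlier results of these data known.

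Myeloid genes tied to IRF8 and PU.1 had a median of 0.20 over 19 members, 14 above and 5 below 0. CYBB, the phagocyte oxidase subunit, gave 415 in R-HL60 and 86.0 in HL60 (4.79-fold), while EGR1 was lowest at -0.67. CYBB was the only one at least 2-fold higher, beside 0.786% of all genes, and 0 were 2-fold lower, beside 0.297%. At 1.5-fold, 4 of these 19 genes were higher, beside 3.53% of all genes, and 1 was lower, beside 1.38%. Of genes tied to IRF4 in lymphocytes, 9 lay above the floor on at least 1 array. Among these, 0 were 2-fold higher, beside 0.786% of all genes, and 1 was 2-fold lower, beside 0.297%. This was the chemokine receptor CCR7 (2.45-fold lower), with 1144 in R-HL60 and 2791 in HL60. The highest was PRDM1, a plasma cell regulator, at 0.66, and the list median was -0.02.

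**Figure D3:**
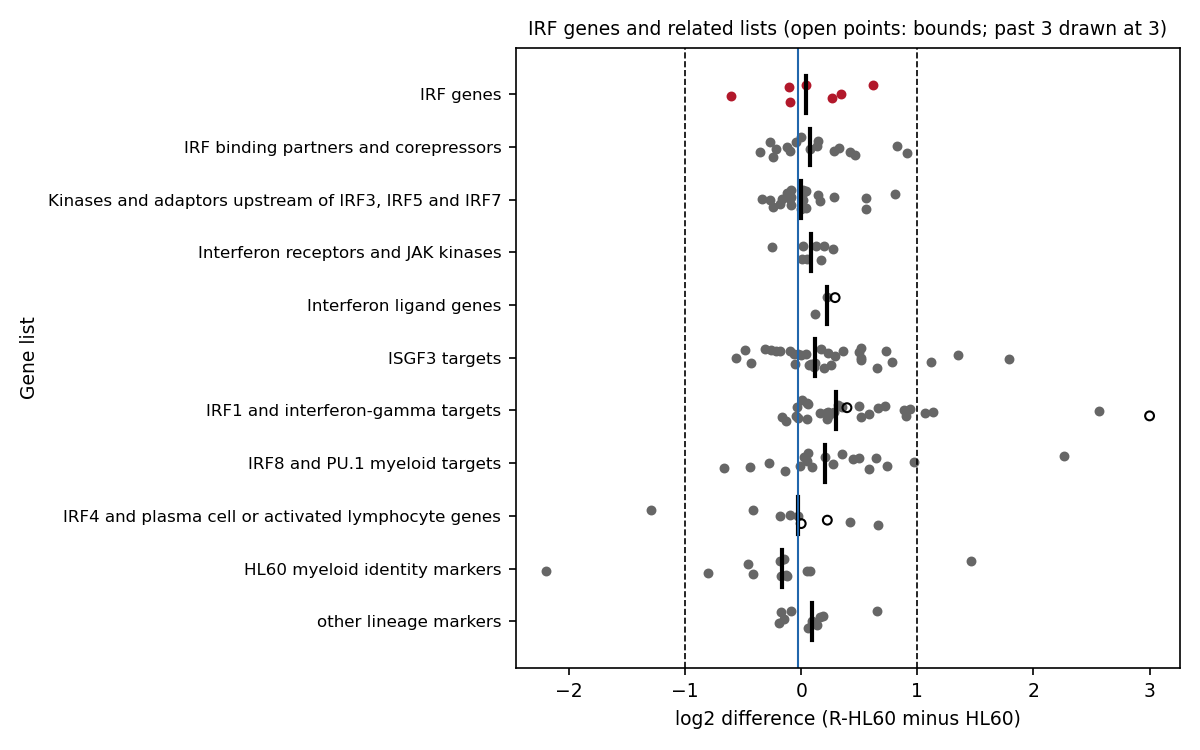
The log2 difference (R-HL60 minus HL60) of the 7 measured IRF genes (red, top) and of each gene in the related lists (grey), with black bars for medians and a blue line for the median of all genes (-0.03). Dashed lines mark 2-fold, and open points are bounds. None of the 7 IRF genes lies outside the dashed lines, which is close to the share of all genes (0.786% higher, 0.297% lower). Beyond the right line lie 3 of 33 ISGF3 targets and 4 of 30 IRF1 and interferon-gamma targets. The lists differ in size and were chosen with earlier results of these data known, so these counts are not a contrast with the IRF genes.

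With 1 difference per gene, likeness in pattern means only a similar difference. Nearest to IRF2, the member with the largest difference as scaled here, among the list genes measured on both arrays were ACSL1 (0.64), KLF4 (0.58) and SOCS1 (0.58). IRF8 had the larger difference under quantile normalization, median scaling, loess and the authors' table.

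All 12 myeloid marker genes on the arrays lay above the floor in both lines. Their signals ran from 153 to 315703 with a sum of 837592 in R-HL60 and from 269 to 357125 with a sum of 960392 in HL60. Most of either sum came from CTSG and MPO, and levels of different probes are not comparable. ELANE was 4.59-fold lower in R-HL60 and CD38 was 2.76-fold higher. Of the 12 differences 3 were above and 9 below 0, with a median of -0.16. Of 15 markers of other lineages 11 lay above the floor on both arrays, with signals over all 15 from 1.66 to 6201 and a sum of 12483 in R-HL60 and from 2.10 to 3923 and a sum of 9734 in HL60. The T-cell gene CD3D differed by 0.65, the furthest from 0 among these. The part of either list in the IRF differences was not tested.

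**Figure D4:**
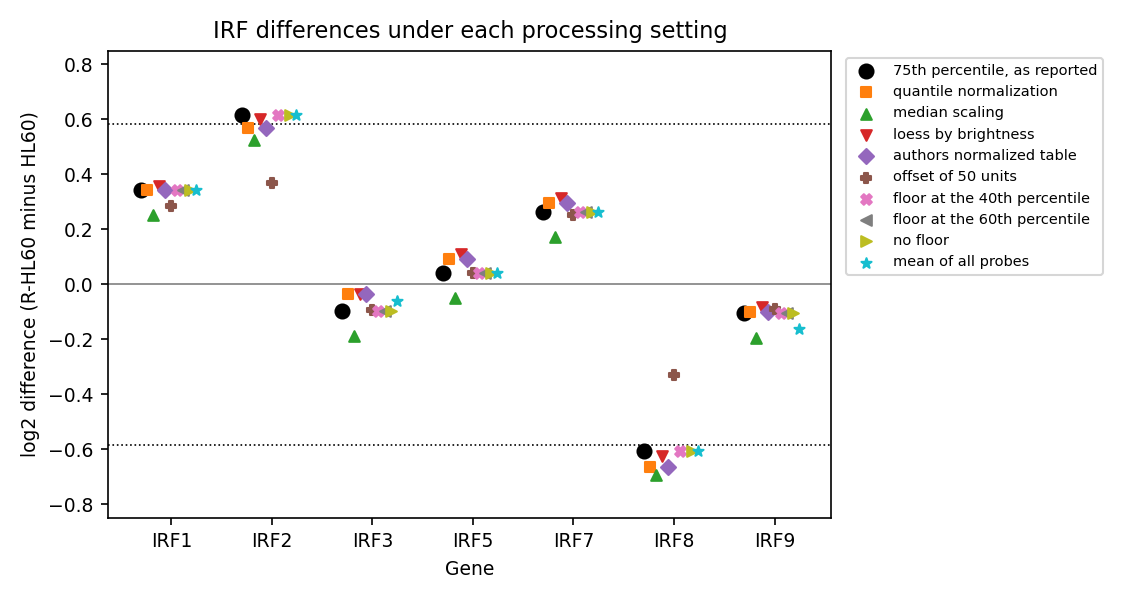
The log2 difference (R-HL60 minus HL60) of each measured IRF gene under 10 processing settings, 1 symbol per setting, with dotted lines at 1.5-fold. IRF1, IRF2 and IRF7 stay above 0 and IRF3, IRF8 and IRF9 below 0, and IRF5 changes sign. IRF2 and IRF8 have no symbol for the floor at the 60th percentile, which each passes on 1 array only.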

How the data were processed

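Total RNA of each line was amplified, labelled with Cy3 and hybridised to a one-colour array, per the labels' protocols, and Agilent Feature Extraction 10.7.3.1 was used, per the submitters' processing notes. The authors deposited 1 linear intensity per probe and array with a gene name, without probe identifiers, background or detection flags, and a table of normalized intensities. The scanner column and the table's normalization are not given in the sources at hand.

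Signals were taken to log2 and each array's 75th percentile subtracted; the brightest probe represented a gene, and each array's median (30.7 for HL60, 32.8 for R-HL60) was the floor. A gene above it on 1 array has a bound, set against its own signal or the floor, whichever is higher. Of 43317 names 21081 were current RefSeq symbols and 1567 older ones, which were updated. Members and lists were chosen with earlier results of these data known. All members are given; each list gives up to 4 genes past 2-fold and its extremes, and some genes are not reported here. With 1 array per line no test was run, and the number of arrays limits the precision. Steps were tested on simulated data. Alternatives covered scaling, floor, offset, probe choice and fold threshold. Python 3.11.15, numpy 2.4.6, pandas 2.3.3, statsmodels 0.14.6 and matplotlib 3.10.9 were used.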

Additional observations from a re-analysis of the deposited data

How the results depend on the processing

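No paired analysis was possible because each line has 1 array. No IRF gene reached 2-fold in either direction under any of the 11 alternatives. The 1.5-fold threshold counted 1 higher (IRF2) and 1 lower (IRF8). IRF2 stayed under 1.5-fold with quantile normalization (1.48-fold), median scaling (1.44-fold), the authors' table and the offset of 50 units (1.29-fold). IRF8 also fell under 1.5-fold with the offset (1.26-fold lower). Only the offset moved a member by more than the probe SD of 0.19, putting IRF2 at 0.37 and IRF8 at -0.33, and the floor at the 60th percentile left 5 measured members. Over the settings IRF1 ran from 0.25 to 0.36, IRF7 from 0.17 to 0.31, IRF3 from -0.19 to -0.03, IRF9 from -0.20 to -0.08 and IRF5 from -0.05 to 0.11. Median scaling shifted the median of all genes by -0.09.

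At 1.5-fold, 3.53% of all genes were higher and 1.38% lower. The lists, named here in short, were chosen with earlier results known, so their counts are not a test against these shares. Higher were 9 of 30 IRF1 targets, 6 of 33 ISGF3 targets, 2 of 17 partners, 1 of 23 upstream genes and 1 of 11 markers of other lineages. These 5 lists held 0 lower genes. Of 19 IRF8 target genes, 4 were higher and 1 lower. Of 9 IRF4-related genes, 1 was higher and 1 lower, and of 12 myeloid markers 1 was higher and 2 lower. At 3-fold there were 2 IRF1 targets, 1 ISGF3 target and 1 IRF8 target gene higher and 1 myeloid marker lower, with 0 higher myeloid markers and 0 lower IRF4-related genes. Quantile normalization, loess and the authors' table each counted 2 higher IRF8 target genes. Without a floor there were 6 higher ISGF3 targets, 1 lower IRF8 target gene, and 1 higher and 1 lower interferon gene, whose list median became -0.22. The share of all genes was not counted at 3-fold or under the other settings, so these counts stand without a background. IRF2 and IRF8 lie close to the floor and IRF4 and 14 interferon genes below it, which limits what their signals show.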
